A study of Mus musculus with 9 samples.

Results

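The repair of platinum damage was examined through 54 named genes of nucleotide excision repair, the Fanconi pathway, homologous recombination and damage signalling, of which 45 were found by symbol among the 13795 genes of the deposited table and 9 are not analysed here (Xpa, Fancb, Fancd2, Fance, Fancf, Fanci, Fancm, Brca1 and Chek1). RNA sequencing had been done on heart tissue of C57BL/6 mice in 2 groups, 4 samples from animals given vehicle and 5 from animals given oxaliplatin at 10 mg/kg, with hearts taken after 8 weeks of treatment. The labels give no sex, age or schedule and do not say whether animals were pooled, and each p-value rests on how far these samples vary, which may be technical. Sequencing depth was estimated at 28.5 M to 36.2 M reads per sample. Values are given in normalized counts, as the authors named them, and each gene reached at least 40.6 in its highest sample. These were bulk samples, so more cells that express a gene and more RNA per cell cannot be told apart.

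Oxaliplatin is a platinum drug that binds purine bases, mostly linking neighbouring guanines of the same strand and less often joining both strands. Links within a strand are cut out by nucleotide excision repair, which recognises the distorted helix, opens it and removes a short stretch. Links between strands stall replication forks and call on the Fanconi pathway, translesion polymerases and homologous recombination, the last of which works in dividing cells. Adult cardiomyocytes hardly divide, while endothelial cells, fibroblasts and immune cells of the heart can.

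Few of the repair genes passed the test. Of the 45 measured, 1 rose, the helicase gene Brip1, 1 fell, the nick sensor gene Parp1, and 43 did not pass (limma on log2(normalized count + 1), Benjamini-Hochberg adjusted p under 0.05 over 13788 genes). Over all genes tested 9.23% passed as higher and 5.03% as lower, 14.3% in all, against 4.44% of the repair genes. Their median log2 fold change was -0.04, beside -0.02 for all genes, and their median size of change without regard to sign was 0.22, beside 0.24. Summed over the 45 genes, normalized counts ran from 16542 to 17201 in vehicle samples and from 16622 to 17092 in oxaliplatin samples, a sum to which Ddb1 alone gave more than any other member. A miss of the threshold does not show that a gene stayed the same, so each fold change is also given with its 95% interval from limma. For 24 of the 45 this interval lay wholly within 1.5-fold in either direction, and for 37 within 2-fold. The 8 whose interval reached further were Fanca, Fan1, Slx4, Ube2t, Brip1, Palb2, Xrcc3 and Rad54l, and 7 of them had a mean under 100 normalized counts. Fanca, Brip1, Palb2, Rad51c and Rad54l lay under 40.6 in each vehicle sample, so they reached the lowest peak value of the table only through oxaliplatin samples, and Fan1 did so only through vehicle samples. A gene of this kind is listed on the side where it is high, so the direction of Brip1 is no support for the set.

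**Figure D1:**
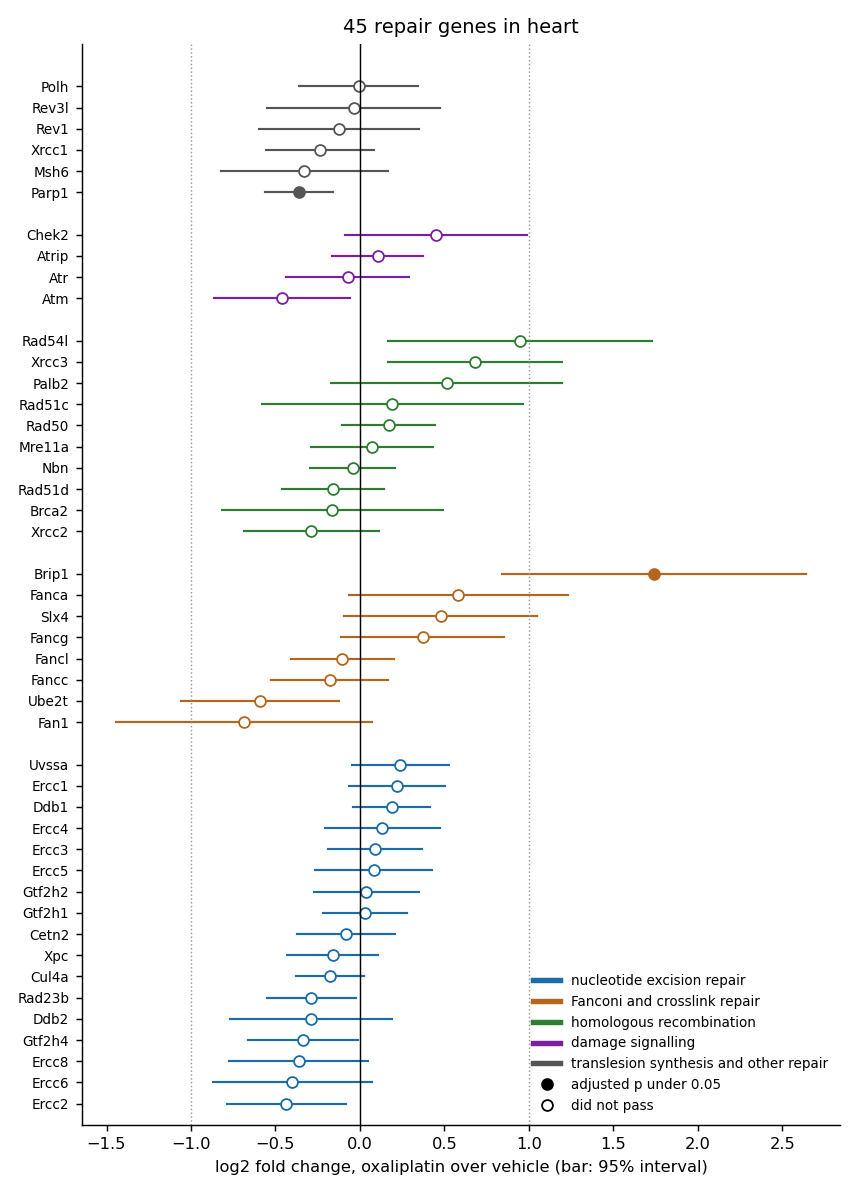
Log2 fold change of oxaliplatin over vehicle for each of the 45 measured repair genes, grouped by role, with its 95% interval as a bar, filled points for adjusted p under 0.05 and dotted lines at 2-fold. Brip1 at 1.74 and Parp1 at -0.36 are the filled points, and the intervals of all 17 nucleotide excision repair genes lie inside the dotted lines.

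Nucleotide excision repair genes did not change beyond the test's threshold. Of 17 measured, 0 passed in limma, beside 14.3% of all genes tested. An unadjusted p under 0.05 was found for 3 (Ercc2, Rad23b and Gtf2h4), beside 28.8% of all genes. All 17 intervals lay within 2-fold, 12 of them within 1.5-fold. Log2 fold changes ran from -0.44 to 0.24, with 8 above 0 and 9 below.

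Damage recognition genes were measured first along this path. Xpc, whose protein finds the distorted helix, had 347, 281, 305 and 332 normalized counts in vehicle samples 1 to 4 and 282, 311, 279, 283 and 256 in oxaliplatin samples 1 to 5. The groups overlapped (log2 fold change -0.16, 95% interval -0.43 to 0.11, adjusted p = 0.420 in limma). Its partners Rad23b and Cetn2, which stabilise the XPC protein, had log2 fold changes of -0.29 (interval -0.55 to -0.02, adjusted p = 0.139) and -0.08 (-0.38 to 0.21). Rad23b lay between 391 and 478 in oxaliplatin samples and between 450 and 611 in vehicle samples. Ddb1 and Ddb2 form the damage sensor that rides on the ubiquitin ligase scaffold made from Cul4a. Ddb1 was at 3883 ± 362 normalized counts in vehicle samples and 4416 ± 305 in oxaliplatin samples (SD, n = 4 and n = 5), with an adjusted p of 0.263, and Ddb2 at 113 ± 22.6 and 93.4 ± 22.1 (adjusted p = 0.419). Cul4a was lower in each oxaliplatin sample, from 953 to 1086, than in any vehicle sample, from 1111 to 1195, with a log2 fold change of -0.18 (adjusted p = 0.230).

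The transcription-coupled branch, which clears lesions that block RNA polymerase, is served by Ercc6, Ercc8 and Uvssa. Ercc6 had a log2 fold change of -0.40 (interval -0.87 to 0.07) and Ercc8 one of -0.36 (-0.77 to 0.05), while Uvssa was at 0.24 (-0.05 to 0.52). None of them passed, with adjusted p of 0.249, 0.229 and 0.258, and their groups overlapped.

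Opening and cutting follow recognition. Ercc2, a helicase of the TFIIH complex, had 232, 163, 177 and 194 normalized counts in the vehicle samples and 151, 140, 117, 133 and 163 in the oxaliplatin samples, where the highest of them lay just above the lowest vehicle sample. The fold change was -0.44 (interval -0.79 to -0.08, adjusted p = 0.0941). Ercc3, the other TFIIH helicase, was at 0.09, and the core subunits Gtf2h1 and Gtf2h2 were at 0.03 and 0.04. Gtf2h4 was at -0.34 (adjusted p = 0.156). Among the 22 alternatives it passed only with array weights (-0.41), which raised the calls over all genes from 1272 higher and 694 lower to 1975 and 1566. Ercc1 and Ercc4 encode the joined subunits of the nuclease that cuts on the 5′ side of the lesion, a pair often measured in tumours treated with platinum. Ercc1 had 1021, 1227, 1282 and 1043 normalized counts in vehicle samples and 1704, 1116, 1244, 1262 and 1359 in oxaliplatin samples. Oxaliplatin sample 1 was the highest and the groups overlapped (log2 fold change 0.22, interval -0.07 to 0.50, adjusted p = 0.297). Ercc4 was at 0.13 (-0.21 to 0.47), and Ercc5, which cuts on the 3′ side, at 0.08 (-0.26 to 0.43). For these 3 nuclease genes a rise of 1.5-fold lay outside the interval.

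Fanconi and crosslink repair genes held the largest change of the set. Of 8 measured of 14, 1 rose, beside 9.23% of all genes tested, and 7 did not pass. Log2 fold changes ran from -0.69 to 1.74, split evenly by sign. Brip1 (chromosome 11, 86058138 to 86201193, GENCODE M21 on GRCm38) encodes a DNA helicase, also called FANCJ, that binds BRCA1 and works at crosslinks and stalled forks. It had 17.9, 6.70, 25.8 and 16.1 normalized counts in vehicle samples and 77.7, 29.1, 60.4, 47.1 and 62.8 in oxaliplatin samples. Each oxaliplatin sample lay above each vehicle sample, with oxaliplatin sample 2 nearest to them. The log2 fold change was 1.74 (standard error 0.42, interval 0.84 to 2.64, adjusted p = 0.0151 in limma), a 3.34-fold rise. An estimated 6 to 24 reads lay behind each vehicle value and 33 to 70 behind each oxaliplatin value. The call held without each sample in turn (adjusted p from 0.00585 to 0.0418) but not with the erythroid marker score as a covariate (1.88, adjusted p = 0.0721). The 9 measured of 10 erythroid markers had a median log2 fold change of -2.66, though 0 of them passed. Their summed level was 222518 to 572561 normalized counts in vehicle samples, 8343 to 43357 in 4 oxaliplatin samples, and 359990 in oxaliplatin sample 3. The part of blood cells in the values of Brip1 and Parp1 was not tested.

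Other genes of the Fanconi path varied in both directions. Ube2t, the ubiquitin-conjugating enzyme that marks the FANCD2 and FANCI proteins, had 139, 140, 193 and 161 normalized counts in vehicle samples and 84.8, 89.0, 161, 85.3 and 115 in oxaliplatin samples. All but oxaliplatin sample 3 lay below the vehicle samples, and without that sample Ube2t passed (-0.75, adjusted p = 0.0303), against -0.59 and 0.0871 with all 9 samples. Of the 9 fits without a single sample it passed in only 1, and adjusted p reached 0.238. Fan1, a nuclease recruited to marked FANCD2, was at -0.69 (interval -1.44 to 0.07, adjusted p = 0.217). Fanca, Fancg and Fancl belong to the core complex that carries the ligase. Fanca was at 32.7 ± 8.94 and 48.7 ± 10.0 normalized counts (0.58, adjusted p = 0.221), Fancg at 97.9 ± 21.1 and 128 ± 31.1 (0.37, adjusted p = 0.296), and the ligase subunit Fancl at 210 ± 23.5 and 195 ± 16.6 (-0.10). Fancc, another core member, was at -0.18, and Slx4, the scaffold for crosslink nucleases, at 0.48 (-0.10 to 1.05). Intervals were wide in this group, with only 2 of the 8 within 1.5-fold.

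**Figure D2:**
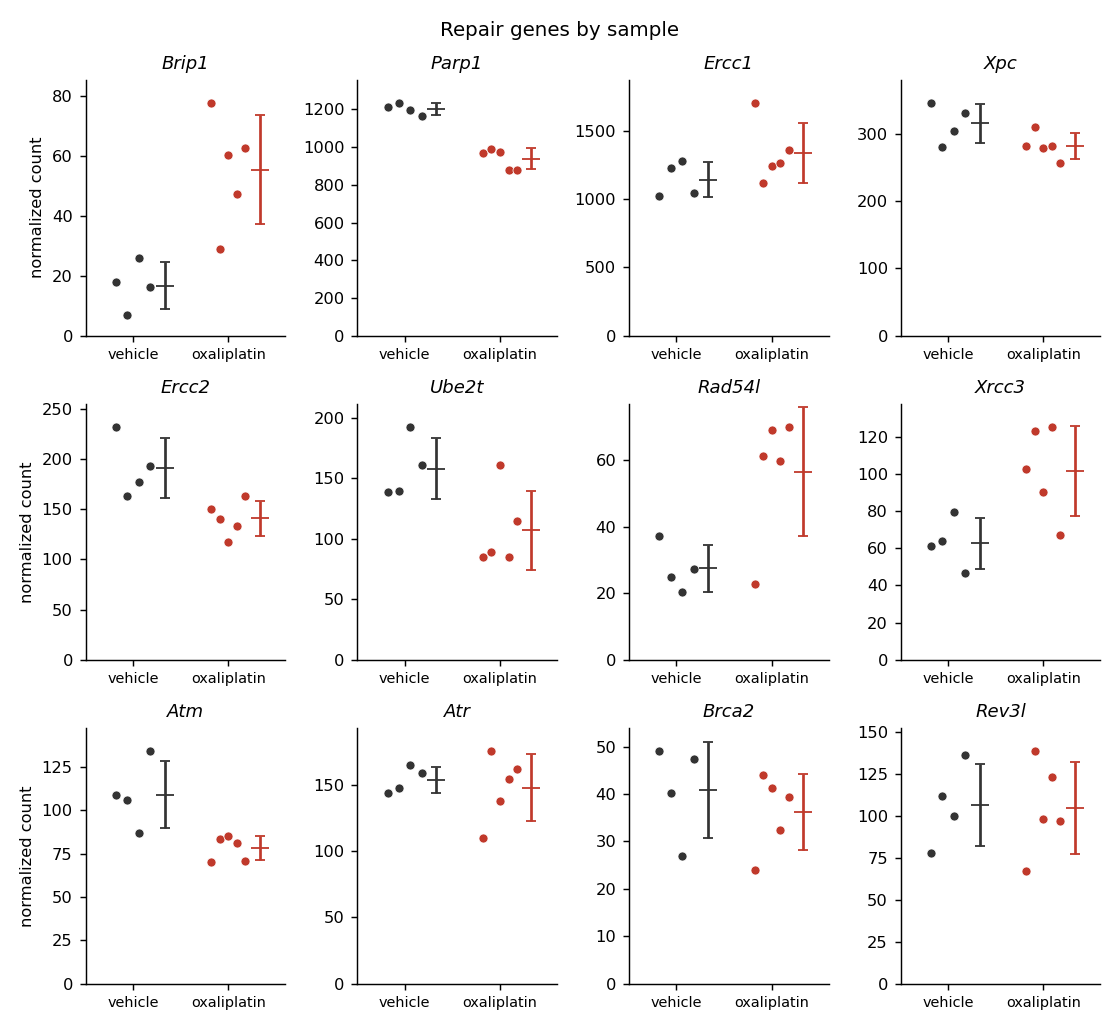
Normalized counts of 12 repair genes in each sample, vehicle in black and oxaliplatin in red, with the mean and SD of each group beside the points and axes that start at 0. The groups do not overlap for Brip1, Parp1 and Atm, while Ercc1, Xpc, Atr, Brca2 and Rev3l overlap.

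Homologous recombination genes gave 0 of 10 that passed in limma, with 2 at an unadjusted p under 0.05, Rad54l and Xrcc3. For all genes tested these shares were 14.3% and 28.8%. Rad54l encodes a DNA-dependent motor protein of this path. It had 37.4, 24.9, 20.5 and 27.2 normalized counts in vehicle samples and 22.7, 61.2, 69.3, 59.96 and 70.03 in oxaliplatin samples. Oxaliplatin sample 1 stood among the vehicle samples and the other 4 above them. With all samples the log2 fold change was 0.95 (interval 0.17 to 1.73, adjusted p = 0.0997), and without oxaliplatin sample 1 it was 1.24 (adjusted p = 0.0119). That was the only 1 of the 9 fits without a single sample in which Rad54l passed, and adjusted p reached 0.232. Xrcc3, which acts in recombination and crosslink resistance, had 61.0, 63.7, 79.6 and 46.4 in vehicle samples and 103, 123, 90.2, 125 and 67.3 in oxaliplatin samples, where sample 5 alone overlapped the vehicle range (0.68, adjusted p = 0.0736). It passed without that sample (0.82, adjusted p = 0.0408) but in only 1 of the 9 fits without a single sample, where adjusted p reached 0.172.

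The remaining recombination genes lay closer to 0. Brca2, a tumour suppressor gene central to this path, had 49.0, 40.2, 26.9 and 47.4 normalized counts against 23.9, 44.0, 41.2, 32.5 and 39.5, with overlapping groups (-0.17, interval -0.82 to 0.49, adjusted p = 0.761). Its partner Palb2 was at 0.51 (-0.17 to 1.19, adjusted p = 0.307). Of the other recombination genes, Rad51c was at 0.19, Rad51d at -0.16 and Xrcc2 at -0.29, each with an adjusted p above 0.3. The break-binding trio Mre11a, Rad50 and Nbn was at 0.07, 0.17 and -0.04, and each of these intervals lay within 1.5-fold.

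Damage signalling genes gave 0 of 4 that passed in limma, with 1 at an unadjusted p under 0.05, beside 14.3% and 28.8% of all genes. Atm, the kinase that responds to double-strand breaks, had 109, 106, 87.1 and 134 normalized counts in vehicle samples and 70.5, 83.7, 85.0, 81.3 and 70.8 in oxaliplatin samples. All oxaliplatin values lay below all vehicle values, by a narrow margin at vehicle sample 3 (-0.46, interval -0.86 to -0.06, adjusted p = 0.118). Among the alternatives it passed only after quantile normalization (-0.53, adjusted p = 0.0497). Atr, the kinase of stalled replication forks, had 143, 147, 165 and 158 against 110, 175, 137, 154 and 161, with overlapping groups (-0.07, interval -0.44 to 0.29, adjusted p = 0.817). Its partner Atrip was at 0.10 (-0.16 to 0.37). Chek2, the kinase downstream of ATM, ranged from 85.4 to 235 in oxaliplatin samples against 96.8 to 125 in vehicle samples (0.45, adjusted p = 0.254), and passed only with the erythroid score as a covariate (1.002, adjusted p = 0.0360).

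Among translesion polymerases and genes of other repair paths, 1 of 6 fell, and all 6 had a log2 fold change below 0. Of all 13788 genes tested 5.03% fell, and 7211 had a log2 fold change below 0. Parp1 (chromosome 1, 180568924 to 180601254, GENCODE M21 on GRCm38) encodes the enzyme that senses nicks and breaks and builds poly(ADP-ribose) at them. It had 1214, 1234, 1196 and 1163 normalized counts in vehicle samples and 968, 993, 976, 879 and 876 in oxaliplatin samples. An estimated 1016 to 1153 reads lay behind each vehicle value and 810 to 1127 behind each oxaliplatin value, so the reads overlapped before scaling. Reads before scaling also follow the depth of each sample. In normalized counts the groups were tight and did not overlap, and expression fell by 22.0% (log2 fold change -0.36, standard error 0.09, interval -0.56 to -0.16, adjusted p = 0.0224 in limma). The size of this difference changed little when single samples were left out, from -0.38 to -0.33. The call did not hold without vehicle sample 1 (adjusted p = 0.0567), vehicle 2 (0.0692), vehicle 3 (0.0609), oxaliplatin 4 (0.0609) or oxaliplatin 5 (0.0595). Nor did it hold when mitochondrial and globin genes were removed and samples rescaled (-0.29, adjusted p = 0.0960), which moved the median of all genes from -0.02 to 0.05. With the erythroid score as a covariate the log2 fold change was -0.35 (adjusted p = 0.135). When the 4 samples richest in atrial markers were left out it was -0.38 (0.124), and both lie near the -0.36 of all samples. Those left out were vehicle 1 (atrial score 2.89) and oxaliplatin 2, 3 and 4 (3.80, 1.25 and 3.29). Of the treated samples that fit kept only oxaliplatin 1 and 5. With the cell division score the log2 fold change of Parp1 was -0.21 (0.989).

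Parp1's partner in nick repair, the scaffold gene Xrcc1, was at -0.24 (interval -0.56 to 0.08, adjusted p = 0.315). The mismatch recognition gene Msh6 was at -0.33 (-0.82 to 0.16, adjusted p = 0.370). Rev3l, the catalytic subunit of the polymerase that extends past platinum lesions, had 77.7, 112, 100 and 136 normalized counts in vehicle samples and 66.9, 138, 98.1, 123 and 96.8 in oxaliplatin samples, with groups that covered nearly the same range (-0.04, interval -0.55 to 0.48, adjusted p = 0.937). Rev1, its recruiting partner, was at -0.12, and Polh, the polymerase that inserts opposite linked guanines, at -0.01 (-0.36 to 0.34).

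Groups that did not overlap were counted as a second view. In normalized counts this held for 1 member that was higher, Brip1, and for 3 that were lower, Cul4a, Atm and Parp1. In estimated reads, before scaling, Cul4a (930 to 1183 in vehicle samples, 880 to 1233 in oxaliplatin samples), Atm (81 to 133, 59 to 100) and Parp1 overlapped. The reads of Brip1 did not (6 to 24, 33 to 70). Over all genes tested, in normalized counts, groups did not overlap for 14.9%, with 8.99% as higher and 5.93% as lower. The 3 lower members of 45 thus lie near the background. At an unadjusted p under 0.05 there were 9 members of 45, beside 28.8% of all genes. The exons of 17 of the 45 overlap those of another annotated gene, among them Ercc1 with Cd3eap and Xrcc3 with Klc1, and how the authors counted such reads is not given in the sources used here. Brip1 has no such overlap, and that of Parp1 is with a microRNA gene.

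The bases before the gene start are shown for the 2 members that passed, as RefSeq gives them on GRCm38.p6, 5′ to 3′ along the gene's strand, for chr11:86201194-86201443 on the minus strand (Brip1) and chr1:180568641-180568890 on the plus strand (Parp1). The Parp1 window ends at 180568890, before the GENCODE M21 start of the gene at 180568924. A check of bases after the RefSeq start against GENCODE transcripts found those of Brip1 but not those of Parp1. Capitals mark the CCAAT word bound by NF-Y, a factor common at promoters of cell cycle genes, here read on the other strand as ATTGG.
Brip1: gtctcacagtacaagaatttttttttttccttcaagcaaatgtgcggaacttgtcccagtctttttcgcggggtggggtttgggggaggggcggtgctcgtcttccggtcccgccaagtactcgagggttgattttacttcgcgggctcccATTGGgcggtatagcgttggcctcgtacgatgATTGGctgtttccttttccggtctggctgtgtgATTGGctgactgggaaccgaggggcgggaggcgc
Parp1: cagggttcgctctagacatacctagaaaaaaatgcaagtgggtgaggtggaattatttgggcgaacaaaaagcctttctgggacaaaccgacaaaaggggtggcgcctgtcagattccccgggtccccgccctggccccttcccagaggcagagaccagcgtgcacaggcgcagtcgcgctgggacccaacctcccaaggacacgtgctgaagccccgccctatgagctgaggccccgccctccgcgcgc

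The Brip1 window holds this word 3 times and the Parp1 window does not hold it. CCAAT on either strand was present in 34.5% of 27025 windows of the same 250 bases, 1 per gene, and in 20 of the 37 measured repair genes with a window (54.1%). Among the 10072 measured genes with a window the share was 36.6%. At least 3 copies were present in 2.98% of all windows, in 4.69% of those of measured genes and in 5 of the 37. Xrcc3 had 6 copies, and Ercc2 and Ube2t, which had negative fold changes, had 3 each, so that copies did not go with 1 direction. E2F-type words (TTCCCGC, or TTGGCGC, or TTCGCGC, or TTGCCGC, on both strands) were in 7.97% of all windows, in 13.9% of those of measured genes and in 10 of the 37, but not in those of Brip1 or Parp1. The words TTTGAA and TTCGAA, of the type of the cell cycle homology region, were in 17.4% of all windows, in 12.5% of those of measured genes and in 2 of the 37. No test was made of these shares.

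Other genes of the same repair paths were taken from 8 lists beside the 45. Of 135 measured, 14 rose and 3 fell, 12.6% in all and near the 14.3% of all genes, with a median log2 fold change of -0.03. The list of other translesion genes held changes in both directions. Rad18, the ubiquitin ligase that marks PCNA to call in these polymerases, had a mean of 42.8 ± 10.6 normalized counts in vehicle samples and of 128 ± 24.2 in oxaliplatin samples. It rose 2.98-fold (adjusted p = 0.00131 in limma). The polymerase gene Polk rose by 0.71 on the log2 scale (adjusted p = 0.0275). Polq, the polymerase of microhomology end joining, had 94.4, 108, 83.9 and 77.7 in vehicle samples and 21.5, 19.4, 27.2, 27.6 and 42.1 in oxaliplatin samples. Its groups lay far apart, and it fell by 1.73 on the log2 scale (adjusted p = 0.00203), while the replicative subunit gene Pold2 fell by 0.32 (adjusted p = 0.0412). In the same samples all 3 measured of 7 B cell markers fell, with a summed level of 262 to 456 normalized counts in vehicle samples and 33.5 to 155 in oxaliplatin samples, and the part of B cells in the fall of Polq was not tested.

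**Figure D3:**
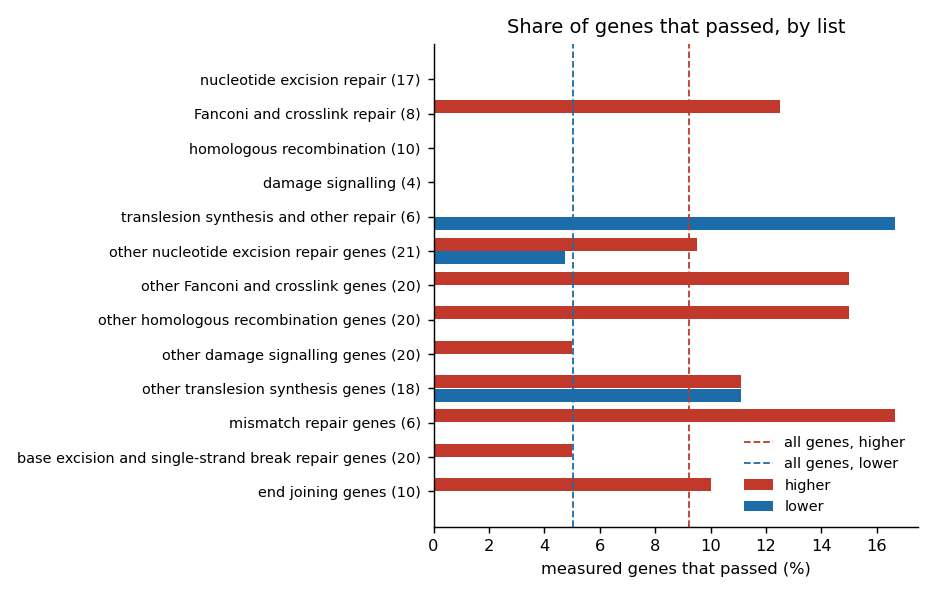
Percent of measured genes that passed as higher (red) or lower (blue) in each role group of the 45 repair genes and in 8 lists of neighbouring repair genes, with the number measured in brackets. Dashed lines give the same percent over all genes tested, 9.23% higher and 5.03% lower, and several groups have so few genes that 1 gene sets the bar.

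In the neighbouring Fanconi list 3 of 20 rose, Neil3 (3.16 on the log2 scale), Uhrf1 (1.82) and Faap20 (0.52). Neil3, a glycosylase that unhooks crosslinks at replication forks, had 2.23 to 7.06 normalized counts in vehicle samples and 17.6 to 83.2 in oxaliplatin samples. Of 20 other recombination genes 3 rose, Rad51ap1 (3.39), Fignl1 (1.85) and Rbbp8 (0.71). Rad51ap1, which aids strand exchange, went from 10.1 ± 8.09 to 100 ± 36.2. Of the 17 neighbouring genes that passed, Neil3, Rad51ap1 and Fignl1 lay under 40.6 in each vehicle sample, so these 3 reached the lowest peak value of the table only through oxaliplatin samples and could be listed only as higher. Of 21 other excision repair genes Lig1 (1.22) and Cul4b (0.59) rose and Ccnh (-0.46) fell, and in each of the signalling, mismatch, base excision and end joining lists 1 gene rose, Tipin (0.69), Pms2 (0.55), Fen1 (0.59) and Polm (0.95). Calls of Cul4b, Ccnh, Faap20, Rbbp8, Polk, Pold2, Pms2, Fen1 and Polm were lost in at least 1 fit without a single sample, and those of Lig1, Neil3, Uhrf1, Rad51ap1, Fignl1, Tipin, Rad18 and Polq held in all 9. The counts of these lists therefore moved by more than 1.5 times, with higher genes between 2 and 5 in the Fanconi list (5 without oxaliplatin 2) and between 1 and 4 in the translesion list (1 without vehicle 2, 3 or 4 or oxaliplatin 3 or 5, and 4 without oxaliplatin 2). Lower genes in the translesion list numbered 1 in all fits without a single sample but those without vehicle 4 or oxaliplatin 1, which gave 2.

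**Figure D4:**
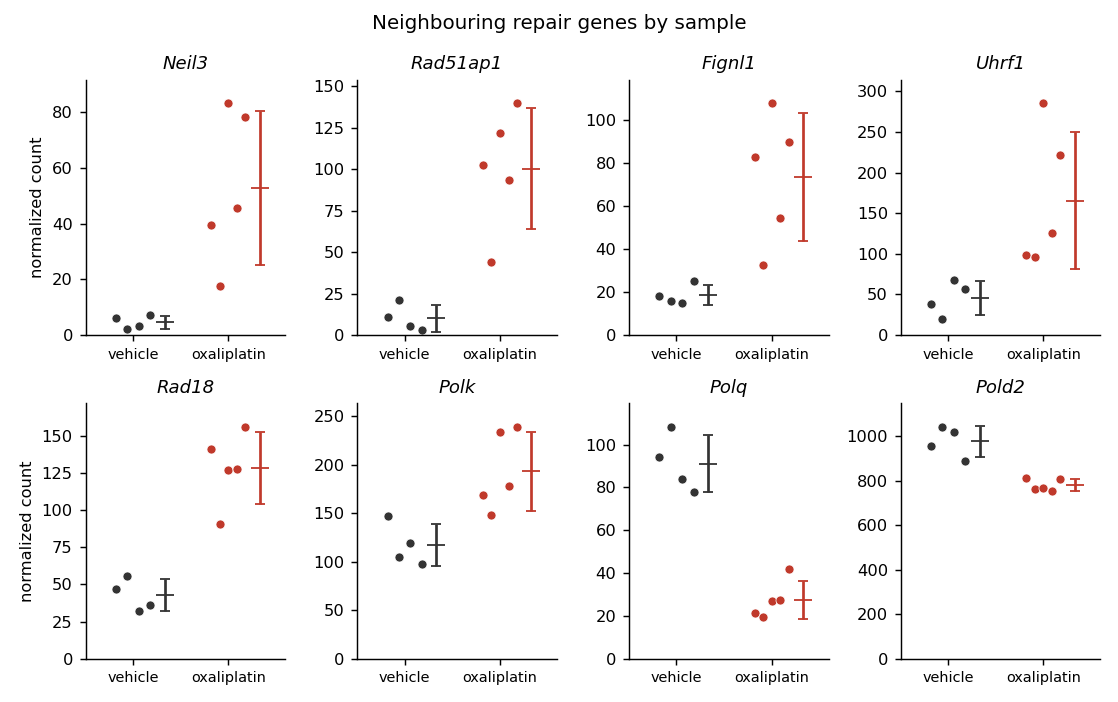
Normalized counts of 8 neighbouring repair genes in each sample, vehicle in black and oxaliplatin in red, with group mean and SD beside the points and axes from 0. The vehicle samples of Neil3 lie between 2.23 and 7.06, and Polq is the gene whose oxaliplatin samples all lie far below the vehicle samples.

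Markers of cell division moved with the group. Of 26 such genes 24 rose and 0 fell, beside 9.23% and 5.03% of all genes tested. Many of the 26, among them Ccnb1, Ccna2, Plk1, Tpx2 and Birc5, lay under 40.6 in each vehicle sample. Those genes reached the lowest peak value of the table only through oxaliplatin samples and could be listed only as higher. The summed level of the 26 was 1624 to 1938 normalized counts in vehicle samples and 2697 to 9026 in oxaliplatin samples. The proliferation antigen Mki67 rose from 21.8 ± 21.2 to 168 ± 96.7 normalized counts, with an adjusted p of 0.00450, and Top2a, a topoisomerase of dividing cells, rose by 2.97 on the log2 scale (adjusted p = 9.67e-04 in limma). Cdkn1a, a cell cycle inhibitor driven by p53, was between 299 and 854 in vehicle samples and between 1790 and 7913 in oxaliplatin samples. A score of the 26 genes, the mean of centred log2 values, was lowest in oxaliplatin sample 2 (-0.11) among the treated samples, whose other scores ran from 0.80 to 1.88. Oxaliplatin sample 2 was also the lowest treated sample for 11 of the 15 repair genes that rose, Brip1 among them. The same share over all genes that rose was not counted. That sample also had the highest atrial marker score of all samples (3.80) and the lowest treated value of Cdkn1a (1790). Brip1 was highest in oxaliplatin sample 1 (77.7), whose cell division score of 0.80 was the lowest but one of the treated samples. It was at 60.4 in sample 3, which had the highest cell division score. With this score as a covariate 0 of 13788 genes passed in limma (820 at an unadjusted p under 0.05), and Brip1 was at 0.63 (adjusted p = 0.994). The score separates the groups without overlap, so that fit can hardly tell it from treatment, and the part of dividing cells in the rise of Brip1 was not tested. The summed level of endothelial markers was also higher in each oxaliplatin sample (31569 to 39750 against 40421 to 81514). Fabp4 gave more to that sum than any other marker. The groups of Pecam1 and Eng did not overlap, while those of Fabp4, Cdh5, Kdr, Tie1 and Egfl7, among others, did. Of the 10 markers 3 rose, and their median log2 fold change was 0.57. The median was 0.85 for fibroblast markers (2 of 10 rose) and 0.59 for smooth muscle and pericyte markers (1 of 9 rose). For macrophage markers it was -0.15 (1 of 10 rose, 1 fell). Summed levels of these 3 lists overlapped between groups. Cardiomyocyte markers, all 10 of them measured, had a median log2 fold change of -0.34, 2 fell, and their summed levels overlapped between groups.

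**Figure D5:**
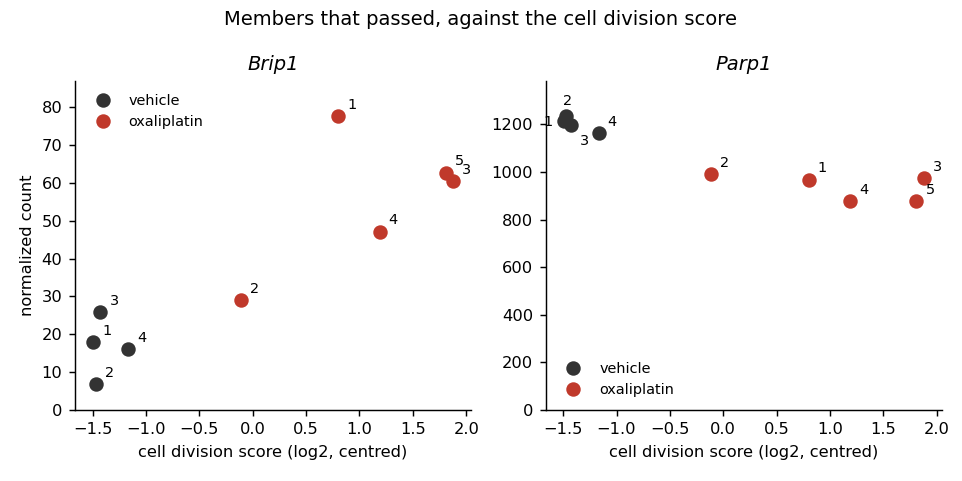
Normalized counts of Brip1 and Parp1, from axes that start at 0, against the cell division score of each sample (mean of centred log2 values of 26 genes), with the replicate number beside each point. The 4 vehicle samples lie at scores from -1.50 to -1.17 and the 5 oxaliplatin samples from -0.11 to 1.88, so the groups form separate clusters and no correlation is given.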

How the data were processed

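RNA of mouse hearts with an integrity number over 8, per the series' design, was made into libraries by the SMARTer method named in the labels' protocols. The authors deposited 1 table of signal values, called normalized gene counts per the file headers. STAR 2.5.1a, Partek and DESeq2 stand without role in the submitters' processing notes. No source used here gives the genome build, annotation or strand setting. Low values fell on sample-specific steps, from which reads were estimated. Of values from 1 to 1000 estimated reads, 73.1% to 75.9% lay within 0.02 of a whole read, so a count test was not used. The titles gave the groups. limma 3.58.1 (R 4.3.3, trend and robust moderation) was run on log2(value + 1), which understates the change of low genes, over the 13788 genes whose mean reached 10. Tests were two-sided, Benjamini-Hochberg adjusted over all these genes, and the steps were tested on simulated data. There 27.5% of 1.5-fold, 57.5% of 2-fold and 90.5% of 4-fold changes were recovered, and 4.08% of calls were false. The 4 simulated tables held far fewer changed genes and gave 564 calls in all, against 1966 in the real data. The adjusted threshold was thus harder to reach there, and these rates do not give the power of the real test. A marker score is the mean of log2 values centred per gene. Samples counted as high in atrial markers had a score over 1. The rule named all members that passed, the 2 of smallest p per role that did not, Ercc1, Xpa, Xpc, Brca1, Brca2, Atm, Atr, Fancd2 and Rev3l, up to 4 passing genes per neighbouring list, and Cdkn1a, Top2a and Mki67. Others were picked after their values were seen. Members and lists were chosen with earlier results of these data known. In all, 22 alternatives were run.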

Additional observations from a re-analysis of the deposited data

Results flagged for a closer look

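In 5 of 90 groups of samples, 45 genes in 2 groups each, 1 sample stood apart from the others by Dixon's ratio of gap to range, and chance flags about 1 group in 20. In oxaliplatin samples these were Rad54l, with sample 1 at 22.7 against 59.96 for the nearest (ratio 0.787), Rad23b, with sample 5 at 478 against 414 (0.732), Mre11a, with sample 1 at 129 against 143 (0.729), and Rad51d, with sample 2 at 418 against 343 (0.715). In vehicle samples it was Chek2, with sample 3 at 125 against 99.4 (0.907).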

How the results depend on the processing

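The count of repair genes that rose was 1, and it was 0 among genes with a mean of at least 100, which leaves Brip1 out, 0 with the cell division score, 3 with array weights (Brip1, Rad54l and Slx4), and 1 to 2 without single samples. The count that fell was 1, and it was 2 after quantile normalization, 2 with array weights, 0 to 2 without single samples, and 0 after removal of mitochondrial and globin genes, with the erythroid score, with the cell division score, without the samples of high atrial score and with the replicate block. The median log2 fold change of the repair genes ran from -0.13 to 0.02 without single samples. Over all genes, where 1272 rose and 694 fell, array weights gave 1975 and 1566, the erythroid score 799 and 249, the cell division score 0 and 0, and single samples left out 789 to 1505 and 321 to 873. Genes that fell numbered 418 after removal of mitochondrial and globin genes and 1057 with the atrial score. Higher genes made up 1151 of the calls and lower genes 965 after quantile normalization. The replicate block gave 925 and 488, and Parp1 at -0.33 (adjusted p = 0.0991). Whether samples of the same number share a batch is not given in the sources used here. Their deviations correlated at -0.273, -0.0636, -0.0935 and 0.250, beside -0.450 to 0.422 for samples of unlike number, which cannot settle it. The block takes up oxaliplatin 5, which has no partner. Signs turned with the cell division score for Chek2 (-1.03), Xpc (0.075), Atr (0.047), Rev3l (0.23), Uhrf1 (-0.20), Fignl1 (-0.037), Polk (-0.081) and Fen1 (-0.12). The signs of Atr (0.0014) and Rev3l (0.035), both near 0, also turned after removal of mitochondrial and globin genes, a rescaling that moved the median of all genes from -0.02 to 0.05. Rev3l turned with array weights (0.062). Without single samples Atr ran from -0.14 to 0.029 and Rev3l from -0.18 to 0.11, with Atr above 0 without oxaliplatin 1 and Rev3l above 0 without vehicle 4 or oxaliplatin 1. The cause of the changes under the other settings was not tested. Mean estimated reads per repair gene ran from 32.6 for Palb2 to 4261 for Ddb1, and the 12 genes with a mean under 100 normalized counts had a median interval half-width of 0.65, against 0.32 for the other 33.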
